A study of Saccharomyces cerevisiae with 8 samples.

Results

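The nuclear genes for the mitochondrial respiratory chain and the ATP synthase of budding yeast (Saccharomyces cerevisiae) were followed through a 20 minute salt stress in the presence and absence of the histone variant H2A.Z. The set is a fixed list of 39 named genes: 3 NADH dehydrogenases, 4 subunits of complex II, 9 of complex III, 2 cytochromes c, 9 subunits of complex IV and 12 of complex V. Each was found on the array by its gene name or systematic name, and all 39 were among the 5394 genes tested. The list was drawn up by role, though with earlier results of these data known.

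Total RNA came from 8 cultures in rich medium (YPD) in exponential growth, each hybridised to its own single-colour oligonucleotide array. The cultures formed 4 groups of 2, described as biological replicates: wild type (WT) without salt, WT with NaCl at 0.4 M for 20 minutes, the htz1 deletion strain without salt, and the htz1 deletion strain with the same NaCl treatment. HTZ1 encodes H2A.Z, and its loss is the only genetic difference the labels give between the strains, which carry 1 strain name, BY4147. Nothing in the labels says whether more than 1 deletion isolate was used.

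Baker's yeast has no proton-pumping complex I. Electrons from NADH enter the chain through single-subunit dehydrogenases, those from succinate through complex II, and both pass by way of ubiquinone to complex III, cytochrome c and complex IV, where oxygen is reduced. The proton gradient made by complexes III and IV drives the ATP synthase, complex V. In cells growing on glucose most of these genes are held low, and heme and oxygen decide between aerobic and hypoxic forms of cytochrome c (CYC1 and CYC7) and of the cytochrome oxidase subunit 5 (COX5A and COX5B).

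Each value below is a log2 signal relative to the 75th percentile of its own array, which is 0 on this scale. Such a value compares a probe with itself across arrays and says nothing of how 1 gene stands to another. In RNA from whole cultures, fewer cells making a transcript and less transcript per cell cannot be told apart. A gene is called changed at a limma adjusted p under 0.05 over all genes tested, with 2 arrays against 2 in each comparison and 1 estimate of the spread from all 8 arrays.

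HTZ1 was well above background on all 4 WT arrays and on 0 of the 4 deletion arrays, and was lower in the latter by at least 65.7-fold without salt and by at least 75.5-fold with it. The a-cell genes STE2, MFA1, MFA2, BAR1 and STE6 were well above background on all 8 arrays, and the alpha-cell genes STE3, MFALPHA1 and MFALPHA2 on 0, while SAG1, also an alpha-cell gene, was on 7. Replicate arrays correlated at r = 0.987 to 0.993 across genes. On each array 37 to 39 members were well above background. The 2 strains lay in different rows of 1 slide and the 2 treatments in different columns, so position on the slide and group cannot be told apart. One array, the second WT culture with salt, held 30 probes whose 2 spots differed by over 4 log2 units, against 0 to 5 on the other arrays, and QCR2 was among them.

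Salt raised transcripts of the matrix NADH dehydrogenase, of complex II and of 8 of the 9 complex III subunits in both strains. It lowered NDE1, another NADH dehydrogenase, and the aerobic form of cytochrome c. It raised the hypoxic forms of cytochrome c and of cytochrome oxidase subunit 5, and left the ATP synthase genes within a narrow band. In WT, 16 of the 39 members rose (41%, where 31.2% of all genes tested rose) and 2 fell (5.13%, against 25.7%). In the deletion strain 21 rose (53.8%, against 29.3%) and 2 fell (5.13%, against 29.1%). The median log2 change of the members was 0.34 in WT and 0.53 in the deletion strain, beside 0.07 and 0.01 over all genes tested. All 16 genes that rose in WT also rose in the deletion strain, where they made up 76.2% of those that rose, and the 2 that fell were NDE1 and CYC1 in both. The counts that rose include NDE2, a dim probe that was tested only because it was bright enough in the salt-treated deletion strain.

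**Figure D1:**
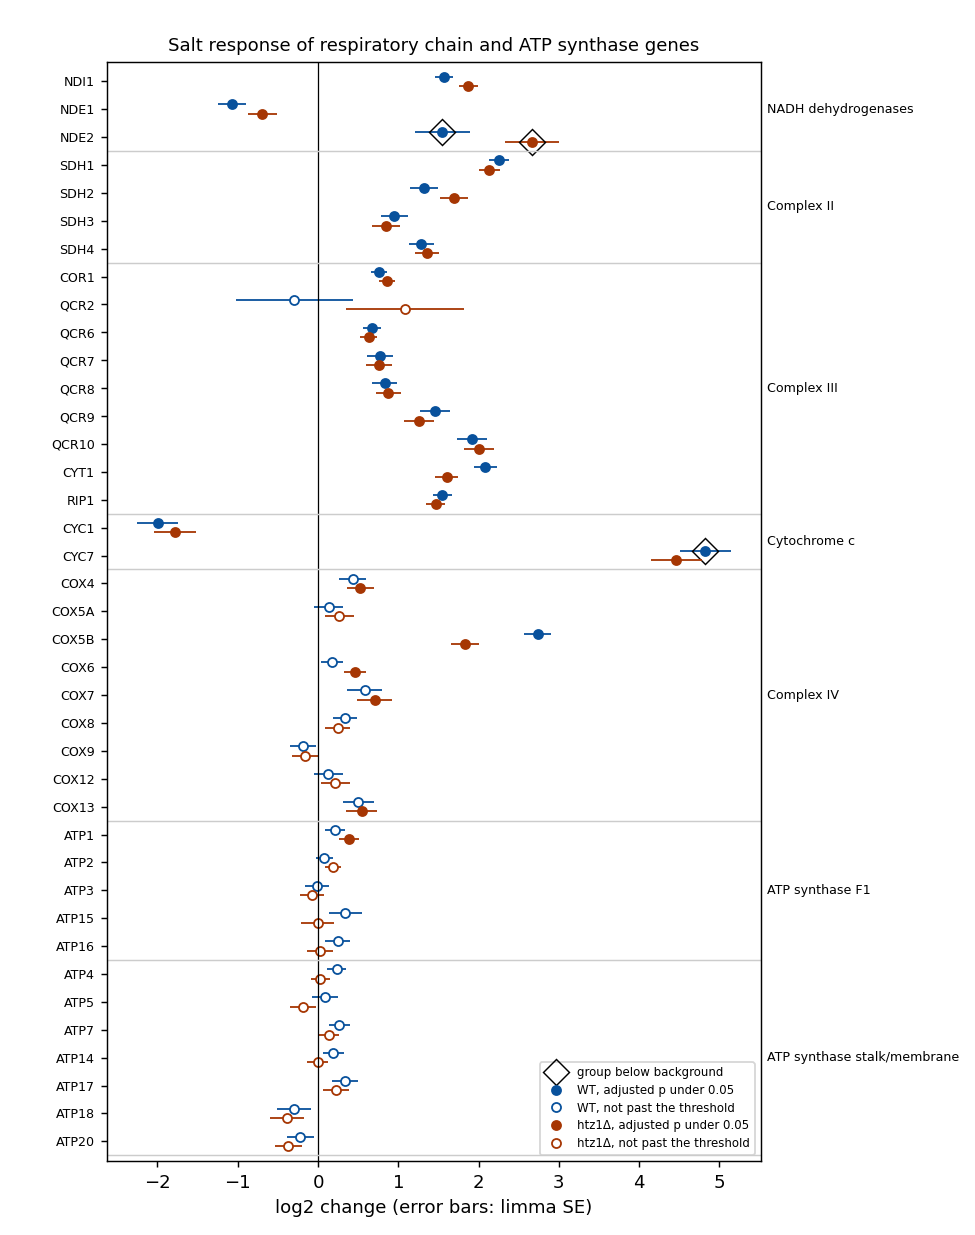
Log2 change with salt for each of the 39 genes, grouped by complex, in WT (blue) and in the htz1 deletion strain (brown), with limma standard errors as bars and filled points for adjusted p under 0.05. Complexes II and III sit to the right of 0 in both strains except for QCR2 in WT, the 12 ATP synthase genes lie between −0.38 and 0.38, and CYC7 (4.46 in the deletion strain, at least 15.6-fold in WT) and CYC1, which fell by 2.00 in WT and by 1.78 in the deletion strain, mark the extremes. Open diamonds mark points for which a group was below background on both arrays (NDE2 in both strains and CYC7 in WT), where the point is a fitted value and not a measured size.

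The 3 NADH dehydrogenases did not move together. NDI1, which oxidises NADH in the mitochondrial matrix, stood at −2.66 and −2.50 in WT without salt and at −0.93 and −1.09 with it. In the deletion strain NDI1 stood at −2.29 and −2.24 without salt and at −0.40 and −0.39 with it. Salt separated the arrays of either strain without overlap, as it did in either direction for 4444 of 5394 genes tested in WT and 4222 in the deletion strain. NDI1 rose by 1.57 (SE 0.11, limma adjusted p = 3.24e-05) in WT, a 2.97-fold change, and by 1.87 (SE 0.11, adjusted p = 1.18e-05) in the deletion strain.

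NDE1 and NDE2 encode the dehydrogenases on the outer face of the inner membrane, which oxidise cytosolic NADH. NDE1 stood at 0.69 and 0.64 in WT without salt and at −0.50 and −0.31 with it, and in the deletion strain at 0.50 and 0.80 without salt and at −0.26 and 0.17 with it. It fell in WT by 1.07 (SE 0.18, limma adjusted p = 0.00168) and in the deletion strain by 0.69 (SE 0.18, adjusted p = 0.0118). The second call rests on 2 arrays: without the second unstressed deletion culture the change was −0.54 (adjusted p = 0.0584), and without the first salt-treated one −0.47 (adjusted p = 0.0743).

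NDE2 was a dim probe. It stood at −5.99 and −7.19 in WT without salt, at −5.02 and −5.06 with it, at −6.90 and −6.84 in the deletion strain without salt and at −4.38 and −4.03 with it. It was well above background on 0 of the 4 unstressed arrays, on 1 of the 2 salt-treated WT arrays and on both salt-treated deletion arrays. It therefore entered the test only through the salt-treated deletion strain, the group where it was brightest. Its salt calls are not independent of that filter. The rise in the deletion strain was at least 1.43-fold (limma adjusted p = 0.000417). In WT no bound on the fold could be given, and the fitted change was 1.55 (SE 0.34, adjusted p = 0.00642), which was not past the threshold after another background correction (normexp; 0.93, adjusted p = 0.297) or with the brighter of its 2 spots (1.15, adjusted p = 0.108) and was 0.95 without the second unstressed WT culture (adjusted p = 0.00669). The deletion strain's change under normexp was 0.02 (adjusted p = 0.987).

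All 4 subunits of complex II, succinate dehydrogenase, rose in both strains, with median log2 changes of 1.30 in WT and 1.52 in the deletion strain. SDH1, the flavoprotein that holds the succinate site, went from −1.36 and −1.30 to 1.02 and 0.82 in WT and from −1.03 and −0.92 to 1.26 and 1.05 in the deletion strain. The changes, 2.25 (SE 0.13, limma adjusted p = 1.17e-05) and 2.13 (SE 0.13, adjusted p = 1.06e-05), correspond to 4.77-fold and 4.39-fold, and no salt-treated array came near an unstressed one. SDH2, the iron-sulfur subunit, went from −2.06 and −2.25 to −0.60 and −1.08 in WT and from −2.23 and −2.20 to −0.42 and −0.62 in the deletion strain.

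SDH3 and SDH4 are the membrane anchors of the complex. SDH4 went from −0.50 and −0.55 to 0.95 and 0.57 in WT and from −0.10 and −0.29 to 1.22 and 1.10 in the deletion strain. SDH3 had the smallest change of the 4 genes in both strains, 0.95 (SE 0.17, limma adjusted p = 0.00257) and 0.84 (SE 0.17, adjusted p = 0.00423). Salt-treated arrays lay above unstressed ones for all 4 genes in both strains. Of the 5394 genes tested, 4444 in WT and 4222 in the deletion strain also had no overlap, in either direction.

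Of the 9 subunits of complex III, the cytochrome bc1 complex, the same 8 rose in both strains and QCR2 did not pass the test in either. The 2 subunits that carry redox centres at the outer side of the membrane were among the members with the larger changes. CYT1, cytochrome c1, went from −1.54 and −1.36 to 0.69 and 0.58 in WT and from −0.93 and −0.62 to 0.83 and 0.82 in the deletion strain. Its log2 change was 2.08 (SE 0.14, limma adjusted p = 2.23e-05) in WT and 1.60 (SE 0.14, adjusted p = 5.71e-05) in the deletion strain.

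RIP1, the Rieske iron-sulfur protein, went from −2.61 and −2.69 to −1.02 and −1.19 in WT and from −2.10 and −2.28 to −0.76 and −0.70 in the deletion strain. Its changes were 1.55 (SE 0.12, limma adjusted p = 4.19e-05) and 1.46 (SE 0.12, adjusted p = 4.38e-05). For both genes the salt-treated and unstressed arrays were apart in both strains, as for 4444 (WT) and 4222 (deletion strain) of the 5394 genes tested.

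The subunits without a redox centre, with QCR2 given separately below, changed by differing amounts. QCR10, a small membrane subunit, went from −3.83 and −4.22 to −2.03 and −2.19 in WT and from −3.58 and −4.02 to −1.79 and −1.80 in the deletion strain. QCR9, another small membrane subunit, went from −1.74 and −2.09 to −0.28 and −0.64 in WT and from −1.27 and −1.62 to −0.16 and −0.23 in the deletion strain. Those shifts were 1.91 and 2.00 for QCR10 and 1.46 and 1.25 for QCR9, of which that of QCR10 in the deletion strain was not past the threshold under normexp (0.90, limma adjusted p = 0.0655). The core protein COR1 and the small subunits QCR6, QCR7 and QCR8 changed less, by 0.67 (QCR6) to 0.83 (QCR8) in WT and by 0.63 (QCR6) to 0.88 (QCR8) in the deletion strain, with adjusted p between 0.00028 and 0.00591.

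QCR2, the second core protein, was decided by 1 spot. Its values were −1.06 and −0.95 in WT without salt, 0.09 and −2.69 in WT with salt, −0.63 and −0.68 in the deletion strain without salt and 0.52 and 0.34 with it. On the second salt-treated WT array its 2 spots read 0.30 and −5.67, a processed intensity of 5274 against 84.2, and neither was marked as an outlier by the scanner software. With both spots the salt change was −0.30 in WT (SE 0.73, limma adjusted p = 0.752) and 1.08 in the deletion strain (adjusted p = 0.24). With the brighter spot of each pair, an alternative added after these values were seen, it was 1.14 (SE 0.12, adjusted p = 0.000296) in WT and 1.11 (SE 0.12, adjusted p = 0.000297) in the deletion strain. Leaving out that array gave 1.09 (adjusted p = 0.00149) and 1.08 (adjusted p = 0.000447).

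**Figure D2:**
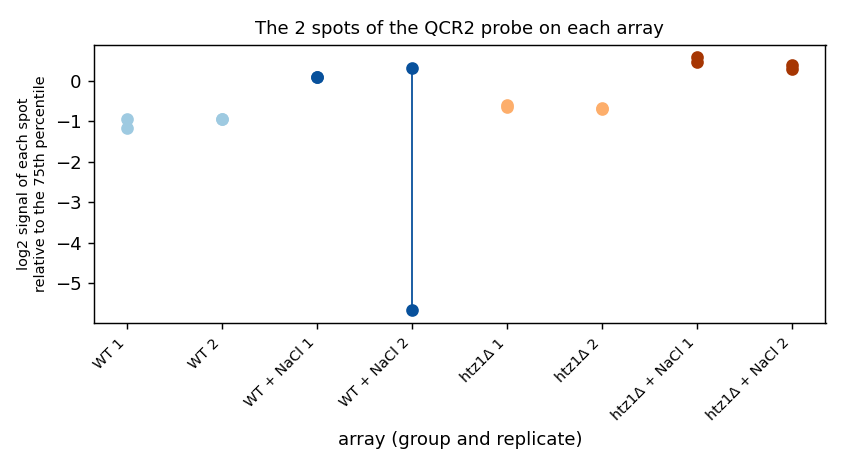
Log2 signal of each of the 2 spots of the QCR2 probe on the 8 arrays, relative to the array's 75th percentile, with a line joining the spots of 1 array. The spots of 7 arrays nearly coincide, while those of the second salt-treated WT array read 0.30 and −5.67.

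The cytochromes c moved in opposite directions. CYC1, iso-1-cytochrome c and the main form in aerobic cells, went from −0.90 and −1.16 to −3.05 and −3.01 in WT and from −2.26 and −3.13 to −4.41 and −4.55 in the deletion strain. CYC1 fell by 2.00 (SE 0.26, limma adjusted p = 0.000501) in WT, a 3.99-fold change, and by 1.78 (SE 0.26, adjusted p = 0.000802) in the deletion strain. CYC7, iso-2-cytochrome c and known as the hypoxic form, went from −5.07 and −5.83 to −0.30 and −0.95 in WT and from −4.02 and −3.43 to 0.79 and 0.68 in the deletion strain. It was well above background on neither unstressed WT array, so its rise in WT was at least 15.6-fold (adjusted p = 2.19e-05), and its change in the deletion strain was 4.46 (SE 0.32, adjusted p = 2.23e-05), or 22.0-fold. These were the members with the largest rise and the largest fall in either strain.

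Cytochrome oxidase, complex IV, is represented by 9 nuclear genes, of which COX5B rose in WT and COX4, COX5B, COX6, COX7 and COX13 rose in the deletion strain. COX5B, the subunit form of hypoxic cells, went from −0.70 and −0.78 to 2.17 and 1.83 in WT and from 1.07 and 0.69 to 2.79 and 2.62 in the deletion strain. Its change was 2.73 (SE 0.17, limma adjusted p = 1.82e-05) in WT and 1.83 (SE 0.17, adjusted p = 8.75e-05) in the deletion strain. COX5A, its aerobic counterpart, stood at 0.23 and −0.08 in WT without salt and at 0.24 and 0.17 with it, and in the deletion strain at 0.09 and −0.40 without and 0.15 and 0.07 with salt. Its arrays moved by 0.13 (95% interval −0.29 to 0.56, adjusted p = 0.559) and 0.27 (−0.16 to 0.69, adjusted p = 0.245), inside an interval that still holds a modest rise or fall.

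The other 7 genes of complex IV changed by −0.19 (COX9) to 0.58 (COX7) in WT and by −0.16 (COX9) to 0.70 (COX7) in the deletion strain. COX4, a subunit that binds zinc, had changes of 0.43 and 0.53, and COX13 of 0.50 and 0.54. In WT the limma adjusted p was 0.0601 for COX4, 0.0547 for COX7 and 0.0603 for COX13. With the replicate number as a block the 3 genes passed the threshold in WT as well, at 0.0438, 0.00586 and 0.00509, so WT then counted COX4, COX5B, COX7 and COX13. The calls for COX4, COX6, COX7 and COX13 in the deletion strain each ended without its second unstressed culture or without either salt-treated one, with changes of 0.31 to 0.79 and adjusted p of 0.056 to 0.214. That for COX13 also ended without either unstressed WT culture (adjusted p = 0.0615). Under normexp the calls for COX4 (0.16, adjusted p = 0.519), COX6 (0.36, adjusted p = 0.0936) and COX13 (0.57, adjusted p = 0.0748) ended too, and COX13 was not past the threshold in 3 more settings (adjusted p of 0.0572 to 0.0694).

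The ATP synthase genes showed small shifts. In WT 0 of the 12 passed the limma test, and 0 had an unadjusted p under 0.05. The changes ran from −0.30 (ATP18, a subunit of the membrane sector) to 0.34 (ATP15, the epsilon subunit of the catalytic sector), and their 95% intervals reached from −0.79 to 0.82. In the deletion strain they ran from −0.38 (ATP18) to 0.38 (ATP1), with intervals from −0.88 to 0.67. ATP1, the alpha subunit, was the gene that passed there (SE 0.12, adjusted p = 0.0307), and its adjusted p was 0.113 without the first unstressed deletion culture and 0.0795 and 0.135 without the first and the second salt-treated one. It was not past the threshold with only the 4 arrays (adjusted p = 0.0751) or with the brighter spot (adjusted p = 0.0607) either.

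The median change of the 12 genes was 0.20 in WT and 0.01 in the deletion strain, beside 0.07 and 0.01 over all genes tested. With the replicate block 2 genes rose in WT, ATP4 (0.23, limma adjusted p = 0.0423) and ATP15 (0.34, adjusted p = 0.0206), and ATP20 fell in the deletion strain by 0.37 (adjusted p = 0.0338). With the authors' deposited table ATP1, ATP7 and ATP17 rose in WT, and in the deletion strain ATP2 rose and ATP20 fell. ATP1 also passed in WT under quantile scaling, ATP17 in WT with only the 4 arrays, and ATP20 in the deletion strain with the brighter spot. ATP4 belongs to the stalk that holds the catalytic sector in place, and ATP20 to the membrane sector.

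**Figure D3:**
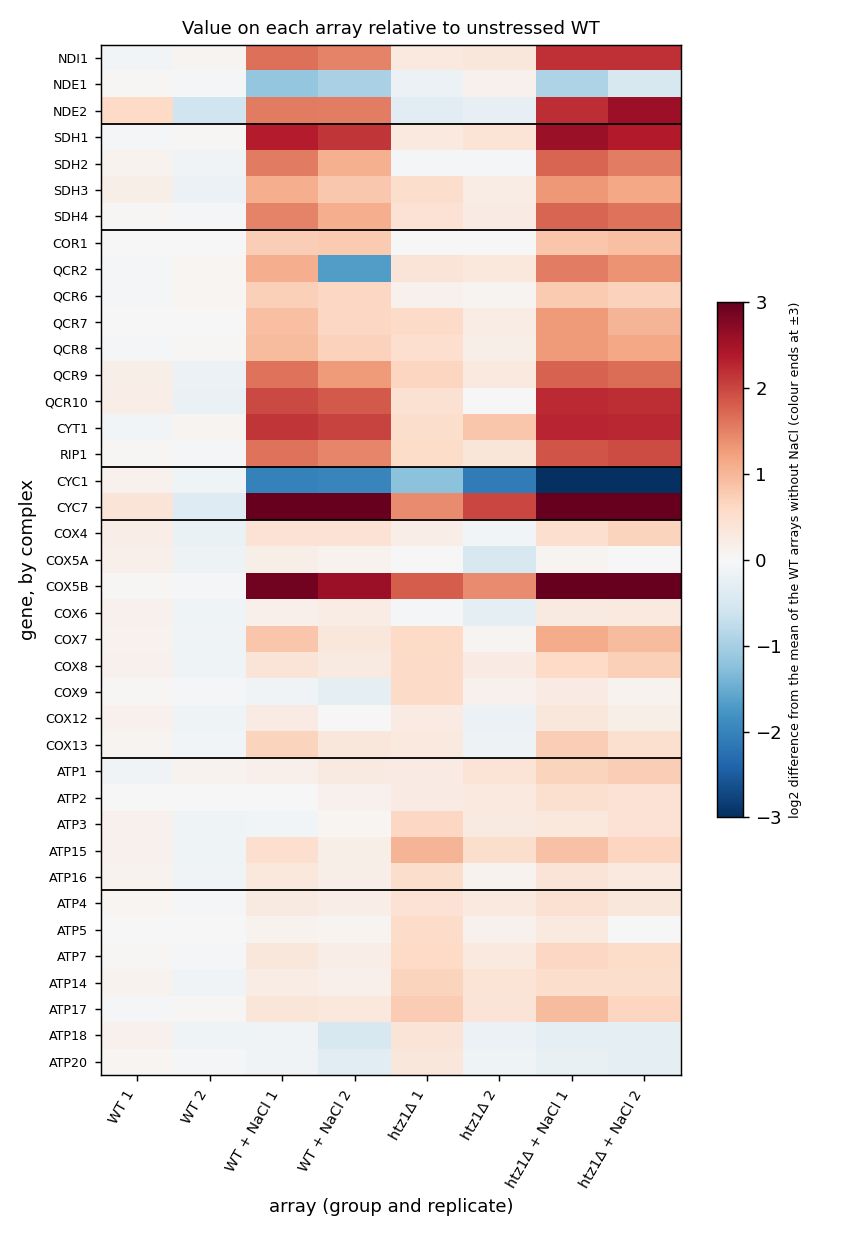
Log2 difference of each gene on each of the 8 arrays from the mean of the 2 WT arrays without NaCl, with genes in rows by complex and colours ending at 3 units either way. Red columns for complexes II and III appear on the salt-treated arrays of both strains. NDE2 and CYC7 are set against WT arrays on which their probes were not well above background, COX5B, CYC7 and CYC1 already differ on the unstressed deletion arrays, and the single blue cell among red ones is QCR2 on the second salt-treated WT array.

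The 3 pairs of paralogs were also compared within each array, as the log2 signal of the form that rose minus that of its partner. A difference of 2 probes shows unequal change, not which transcript is more abundant. COX5B minus COX5A was greater with salt by 2.60 in WT and by 1.56 in the deletion strain, and CYC7 minus CYC1 by 6.25 in the deletion strain. No size is given for CYC7 minus CYC1 in WT or for NDE2 minus NDE1, because CYC7 was not well above background on the unstressed WT arrays and NDE2 on any unstressed array. For COX5B minus COX5A both salt-treated arrays of a strain lay above both unstressed ones. The exact permutation test of the salt labels within strain, two-sided, gave p = 0.0556 for that pair and the same after Benjamini-Hochberg adjustment over the 3 pairs, which is the smallest p that its 36 permutations allow, so this design cannot pass 0.05.

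**Figure D4:**
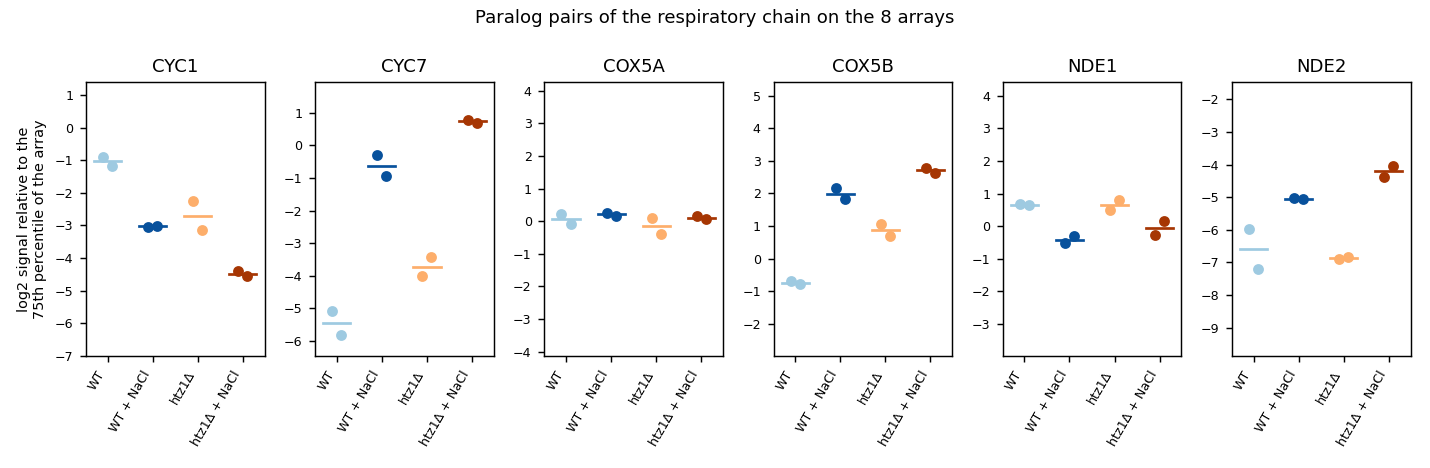
Log2 signal relative to the array's 75th percentile for the members of the 3 paralog pairs, with 1 point per array, a bar at the mean of each group and the same span of units on every axis. CYC1 and NDE1 step down with NaCl while CYC7, COX5B and NDE2 step up, COX5A stays between −0.40 and 0.24, and COX5B and CYC7 start higher in the unstressed deletion strain than in unstressed WT. The unstressed points of NDE2 and the unstressed WT points of CYC7 were not well above background.

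Loss of HTZ1 without salt was accompanied by higher COX5B and lower CYC1, and by higher CYC7 in a call that did not hold in every setting. Of 16 tested genes known from hypoxic growth, COX5B and CYC7 among them, 3 were higher and 4 lower in the deletion strain without salt. In that comparison 6 of the 39 members were higher in the deletion strain (15.4%, where 7.36% of all genes tested were) and 1 was lower (2.56%, against 6.32%). The median change of the members was 0.34, beside −0.04 over all genes tested, and was 0.22 without the first unstressed deletion culture. COX5B was higher by 1.62 (SE 0.17, limma adjusted p = 0.00198), or 3.06-fold, and CYC7 was at least 1.81-fold higher (adjusted p = 0.0156). CYC1 was lower, with a change of −1.66 (SE 0.26, adjusted p = 0.00787). COX5B and CYC1 were the 2 members whose calls held in all 17 alternative settings. COX5A, by comparison, changed by −0.23 (95% interval −0.66 to 0.20, adjusted p = 0.43).

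The other 4 members that were higher without salt had smaller changes. CYT1 was higher by 0.67 (SE 0.14, limma adjusted p = 0.0215), RIP1 by 0.46 (SE 0.12, adjusted p = 0.0453), ATP15 by 0.77 (SE 0.21, adjusted p = 0.0494) and ATP14 by 0.54 (SE 0.13, adjusted p = 0.0363). ATP14, a subunit of the stalk, stood at −2.11 and −2.30 in unstressed WT and at −1.53 and −1.80 in the unstressed deletion strain, and with salt at −1.98 and −2.05 and at −1.67 and −1.66. ATP15 stood at 0.80 and 0.53 in unstressed WT and at 1.68 and 1.19 in the unstressed deletion strain, and with salt at 1.17 and 0.84 and at 1.55 and 1.31. In all 4 genes both unstressed deletion arrays lay above both unstressed WT arrays. Of the 5394 genes tested, 3122 had no overlap in this comparison, in either direction. Each of these 4 calls ended when an unstressed WT array was left out. Without the first one the adjusted p was 0.134 for CYT1, 0.152 for RIP1, 0.113 for ATP15 and 0.0966 for ATP14, and without the second 0.0655, 0.219, 0.231 and 0.205. The calls for RIP1, ATP14 and ATP15 also ended without any 1 of the other arrays except the second unstressed deletion array (adjusted p of 0.0562 to 0.152), and that for CYT1 ended without that array (adjusted p = 0.0604).

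The CYC7 call without salt rested on few spots. It ended without the second unstressed WT array (adjusted p = 0.0727) or the second unstressed deletion array (adjusted p = 0.06), on which the 2 spots of its probe differed by 1.75 and by 2.19 log2 units. It also ended under normexp (limma adjusted p = 0.142), with the brighter spot (adjusted p = 0.0501) and with the authors' deposited table (adjusted p = 0.0877).

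All 12 ATP synthase genes had a change above 0 in this comparison, as did 45.4% of all genes tested. They ran from 0.10 (ATP18) to 0.77 (ATP15), with a median of 0.35, beside −0.04 over all genes tested. Of the 12, 8 had an unadjusted p under 0.05, where 31.2% of all genes had one, and 2 passed after adjustment. With the replicate block ATP1, ATP4, ATP7 and ATP17 passed as well, at limma adjusted p of 0.0344, 0.0238, 0.0224 and 0.0244, as did SDH3, QCR7 and QCR9, and the members counted as higher went from 6 to 13, while over all genes that count went from 397 to 700. The deletion arrays without salt also had the widest gap between replicates, with a median over members of 0.33 where the other groups had 0.12 to 0.18.

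With salt, 5 members were higher in the deletion strain (12.8%, against 5.77% of all genes tested) and 1 was lower (2.56%, against 16.2%). The median change of the members was 0.32, beside −0.07 over all genes tested, and was 0.21 without the second salt-treated WT culture. CYC7 was higher by 1.36 (SE 0.32, limma adjusted p = 0.024), COX5B by 0.71 (SE 0.17, adjusted p = 0.0269), NDI1 by 0.62 (SE 0.11, adjusted p = 0.0106), ATP1 by 0.50 (SE 0.12, adjusted p = 0.0276) and ATP2 by 0.38 (SE 0.10, adjusted p = 0.0403). CYC1 had a change of −1.45 (SE 0.26, adjusted p = 0.00947).

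ATP1 and ATP2 encode the alpha and beta subunits, which together form the catalytic ring. ATP1 stood at 2.43 and 2.63 in unstressed WT, 2.68 and 2.79 in salt-treated WT, 2.78 and 2.94 in the unstressed deletion strain and 3.20 and 3.28 with salt. ATP2 stood at 1.76 and 1.74, at 1.77 and 1.89, at 2.01 and 2.04, and at 2.24 and 2.17 in the same order. For both genes the deletion arrays lay above the WT arrays of the same treatment. Of the 5394 genes tested, 3122 without salt and 3578 with salt had no overlap between the strains, in either direction.

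None of the 6 calls with salt held in every setting. Without the second salt-treated WT culture 0 members were higher and 0 lower, with changes of 1.03 for CYC7 (limma adjusted p = 0.124), 0.54 for COX5B (adjusted p = 0.146), 0.53 for NDI1 (adjusted p = 0.0747), 0.56 for ATP1 (adjusted p = 0.0876), 0.44 for ATP2 (adjusted p = 0.102) and −1.43 for CYC1 (adjusted p = 0.0501). Without either salt-treated deletion culture 0 were higher as well, and CYC1 was not past the threshold without the second of them (−1.38, adjusted p = 0.0569). With the authors' deposited table CYC1 had a change of −0.52 (adjusted p = 0.073) and ATP1 one of 0.30 (adjusted p = 0.113), while quantile scaling gave 0.33 for ATP1 (adjusted p = 0.128). The calls for ATP1 and ATP2 also ended without the first salt-treated WT culture (adjusted p = 0.116 and 0.176), and that for ATP2 without either unstressed WT culture (adjusted p = 0.0817). With the replicate block 13 members were higher and 1 lower, as 588 genes of all tested were higher against 311 without it, the added members being SDH4, QCR7, RIP1, COX7, COX9, ATP14, ATP15 and ATP17, at adjusted p of 0.0192 (ATP15) to 0.0451 (COX9).

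**Figure D5:**
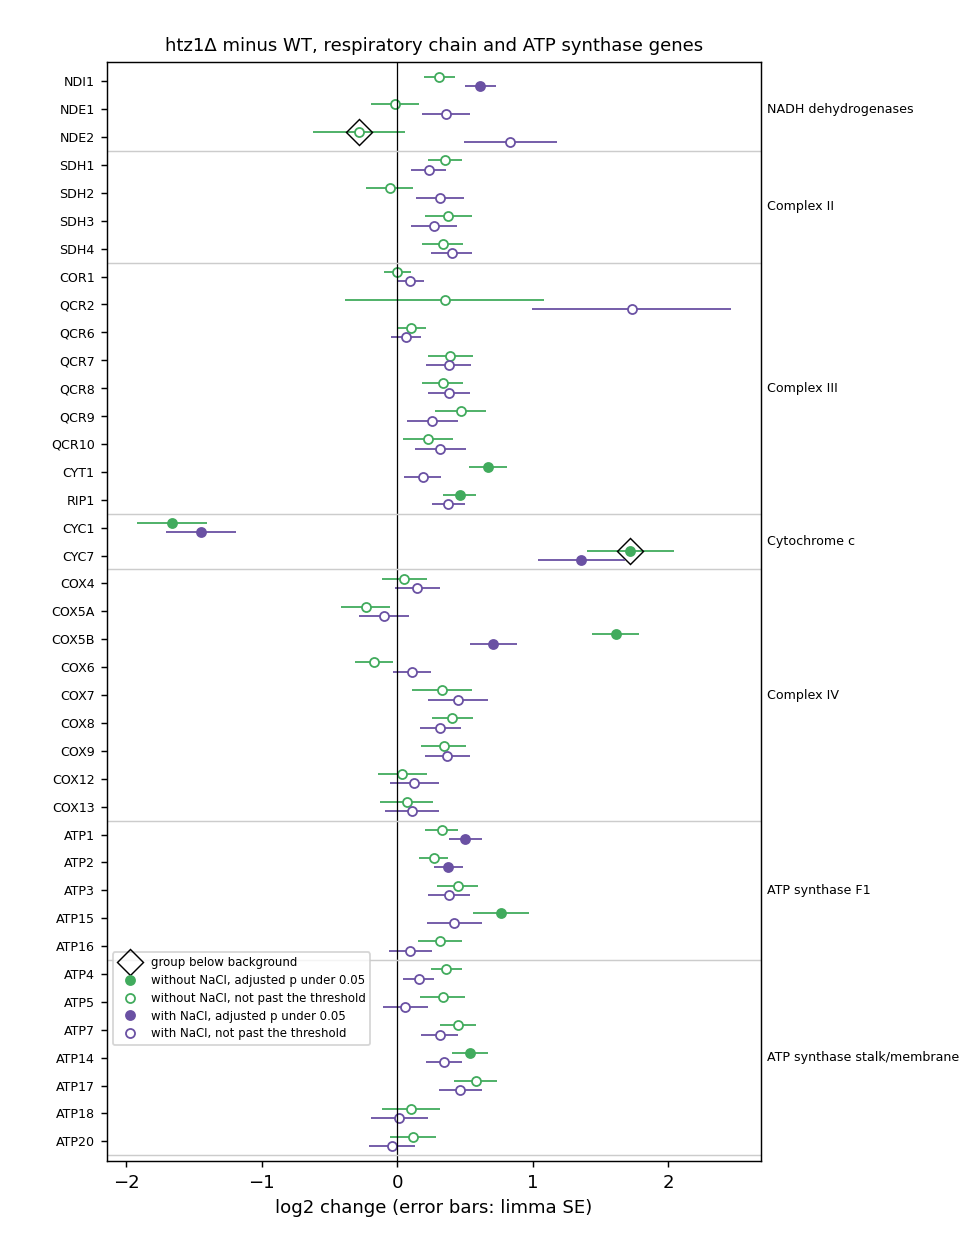
Log2 change in the htz1 deletion strain relative to WT for each of the 39 genes, without NaCl (green) and with NaCl (purple), with limma standard errors as bars and filled points for adjusted p under 0.05. Without NaCl 33 points and with NaCl 36 points lie to the right of 0, where 45.4% and 42.3% of all genes tested do, CYC1 lies at −1.66 and −1.45, COX5B at 1.62 and 0.71 and CYC7 at 1.36 with NaCl. Open diamonds mark fitted values of CYC7 (at least 1.81-fold) and NDE2 without NaCl, where a group was below background, and the wide bars of QCR2 come from 1 spot on 1 array.

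Whether the salt response itself differed between the strains was tested as an interaction, the change in the deletion strain minus that in WT. By limma 0 of the 39 members passed, where 1% of all genes tested did, and 2 members, COX5B and CYT1, had an unadjusted p under 0.05, where 12.1% of all genes did. COX5B had the lowest p: its interaction was −0.91 (SE 0.24, adjusted p = 0.177), with both unstressed deletion arrays above both unstressed WT arrays and a smaller rise from there. Without salt, 3122 of the 5394 genes tested had no overlap between the strains. With the replicate block the adjusted p of the COX5B interaction was 0.0388. CYT1 had an interaction of −0.48 (SE 0.20, adjusted p = 0.38). The 5 genes that rose with salt in the deletion strain and did not pass in WT (COX4, COX6, COX7, COX13 and ATP1) had interactions of 0.04 to 0.28, none past the threshold, so a difference between the strains was not shown for them.

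The genes around the chain were read from lists by role, in which only the genes with the largest changes are named. Of all genes tested, 31.2% rose and 25.7% fell in WT, and 29.3% rose and 29.1% fell in the deletion strain, and each count below stands beside those shares. Of 11 genes for ubiquinone synthesis, 7 rose and 0 fell in each strain. In a list of 10 other electron donors and redox-related genes, 7 rose and 1 fell in WT and 8 rose and 1 fell in the deletion strain. Not every gene of that list is known to feed electrons to the chain. GUT2, the mitochondrial glycerol 3-phosphate dehydrogenase that feeds the ubiquinone pool, changed by 3.17 (SE 0.20, limma adjusted p = 1.66e-05) in WT and 3.10 (SE 0.20, adjusted p = 1.36e-05) in the deletion strain. It stood at −2.81 and −2.99 in unstressed WT and at 0.21 and 0.34 with salt, with no overlap, as for 4444 of the 5394 genes tested. AIM17, a mitochondrial protein of that list, changed by 4.39 (SE 0.12) in WT and 3.67 (SE 0.12) in the deletion strain.

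Among 5 carriers of ATP, ADP and phosphate, 2 rose and 1 fell in each strain. PIC2, a carrier of phosphate and copper, rose by 2.65 (SE 0.11, limma adjusted p = 2.93e-06) in WT and by 2.72 (SE 0.11, adjusted p = 2.53e-06) in the deletion strain. AAC3, an ADP/ATP carrier known from anaerobic growth, fell by 2.22 (SE 0.13, adjusted p = 1.47e-05) in WT and by 1.75 (SE 0.13, adjusted p = 2.9e-05) in the deletion strain.

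For succinate dehydrogenase homologs and assembly factors, 6 of 7 tested rose and 0 fell in each strain. For cytochrome oxidase assembly 14 of 28 rose and 2 fell in WT and 12 rose and 2 fell in the deletion strain. For bc1 and cytochrome c assembly 5 of 10 rose in WT and 3 in the deletion strain, and for ATP synthase assembly 5 of 11 and 6 of 11, with 0 lower in either list. Of 9 mitochondrial translational activators 3 rose in WT and 1 in the deletion strain, with 0 lower. The counts that rose for bc1 and cytochrome c assembly in the deletion strain and for the translational activators in both strains lay near or under the share of all genes.

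The 7 subunits encoded in mitochondrial DNA had 0 higher and 1 lower in each strain, COX3 in WT (−0.56, SE 0.19, limma adjusted p = 0.0368) and COX2 in the deletion strain (−0.39, SE 0.11, adjusted p = 0.0187), both named after their values were seen. Of 16 tested genes known from hypoxic growth, a list that includes COX5B and CYC7, 4 rose and 5 fell in WT and 4 rose and 8 fell in the deletion strain. OLE1, the fatty acid desaturase of that list, fell by 3.52 in WT (SE 0.77, adjusted p = 0.00616), and its 2 spots differed by 6.34 log2 units on the same array that decided QCR2. Without that array its change was −2.10 (adjusted p = 0.000877), and with the brighter spot it was −1.92 (adjusted p = 0.000318).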

How the data were processed

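Total RNA of 8 cultures was labelled with Cy3 and measured on single-colour Agilent yeast arrays, 1 per culture. Per the file headers, Feature Extraction 10.7.3.1 gave the deposited processed intensity, background-subtracted and detrended within its array, and the array design names the sacCer2 build. The authors' deposited table of log2 values has column medians of 10.55 to 10.57 and correlated with the log2 processed intensities at r = 0.95 to 0.967 within arrays. No source used here gives its normalization. The submitters' processing notes list limma, with no version.

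Groups and replicate numbers came from the sample labels. Spots of controls and 86 others flagged as outliers were left out, and 0 spots were saturated. Values are log2 processed intensity minus the array's 75th percentile (2740 to 4290), as the mean of both spots of each probe. Testing required that both arrays of 1 or more groups had the gene's probe well above background, which 5394 genes met (4842 of them on all 8 arrays). The brightest probe was used for the 19 genes that had several. Names came from the files and, for 5748 of 6256 probes, from the R64 gene table, used for names only because its build differs. The number of arrays limits the precision. A probe well above background on neither array of a group has only a bound there, given as "at least N-fold": the bright group's mean against the dim probe's own value or the array's lowest value well above background, whichever is higher.

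Comparisons were fitted with limma 3.58.1 (R 4.3.3; lmFit on 4 group means, contrasts, eBayes with 4 residual and 3.35 prior degrees of freedom), with Benjamini-Hochberg adjustment over all genes tested. Arrays of the same replicate number deviated together from their group means in all 6 pairs of groups (r = 0.176 to 0.422), so the numbers may pair cultures, on the data's evidence and not the labels'. The main fit, the source of all calls where no other setting is named, did not use the numbers. The fit with the number as a block is given where it changed a call.

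The members and lists were chosen with earlier results of these data known. Per-array values are given for members called with a log2 change of at least 1, the paralog pairs, NDI1, and members called in a deletion comparison or the interaction. Of the wider lists the 4 genes with the largest called change in each salt comparison are named, and any other is said to be chosen after its values were seen. Alternatives were normexp (offset 50) on the median signals, since the files give no mean signals, quantile scaling, the authors' deposited log2 values, other filters on dim probes, the mean over a gene's probes, only the 4 arrays of a comparison, the replicate block, leaving out each array and, added after the data were seen, the brighter of the 2 spots. A planned count of promoter motifs was not made, as no sequences were used here.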

Additional observations from a re-analysis of the deposited data

How the results depend on the processing

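Limma calls for salt were the steadier ones. Of 18 called member changes in WT, 17 held in every setting in which they were tested, NDE2 being the exception, and of 23 in the deletion strain 15 did. There were 17 settings, or 16 for CYC7 and NDE2, which the filter for probes above background on all 8 arrays left out. Of the 7 calls of the deletion comparison without salt 2 held and of the 6 with salt 0, and 0 called changes reversed in sign in any setting. QCR2 with salt in WT, which was not called, went from −0.30 to 1.14 with the brighter spot and ranged from −1.68 to 1.09 when 1 array was left out.

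Under normexp the members' median change with salt in the deletion strain was 0.36, 2 members were higher in the deletion strain without salt and 0 with it. Normexp also moved the median of all genes, to −0.18 for salt in the deletion strain, 0.11 for the deletion without salt and −0.21 for the interaction, and the share of higher genes among the changed to 35.6% from 50.2% and to 87.6% from 53.8% in the first and second of these. For the deletion with salt that share was 43.4% under quantile scaling and 46.7% with the authors' deposited table, against 26.3%. The authors' deposited table gave 9 members higher and 0 lower in the deletion strain with salt. With the authors' deposited table the salt changes in WT were smaller for NDI1 (1.00), RIP1 (1.00), QCR10 (0.81), CYC7 (2.64) and NDE2 (0.30), as were those in the deletion strain for QCR10 (1.15), NDE2 (0.61) and CYC1 (−0.77), all still past the threshold. Without salt, 3 members were higher with no filter on dim probes, 2 with only the 4 arrays and 3 with the brighter spot, which also gave 3 with salt. The replicate block gave 13 higher without salt, 13 with salt and 1 lower in the interaction, and no other count of members moved by over 1.5 times under it.

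Leaving out 1 array gave 1 to 6 members higher and 1 to 2 lower without salt, 0 to 7 higher and 0 to 1 lower with salt, 1 to 3 lower for salt in the deletion strain and 0 to 1 higher in the interaction. The members' median then ranged from 0.31 to 0.50 for salt in WT, from 0.38 to 0.65 for salt in the deletion strain, from 0.22 to 0.44 for the deletion without salt, from 0.21 to 0.38 with salt and from −0.18 to 0.11 for the interaction. With probes below background set at their bound, the members' medians were 0.34 for salt in WT, 0.52 for salt in the deletion strain and 0.34 for the deletion without salt. The causes were not tested, and leaving out an array lowers the number of samples by construction. Over all genes, 738 changed in the deletion comparison without salt, against 185 under normexp, 348 with 4 arrays and 1395 with the block, 1183 with salt against 324 and 1829 (normexp and block), and 54 in the interaction against 1 and 141.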

Other observations

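Of 10 regulators of heme and oxygen response, 3 rose and 3 fell with salt in WT, where 31.2% of all genes rose and 25.7% fell. In the deletion strain 4 rose and 1 fell, where 29.3% of all genes rose and 29.1% fell. The 3 named here were chosen after their values were seen. HAP4, the activator subunit of the Hap complex that drives many respiratory genes, stood at −1.35 and −1.18 in unstressed WT and at −2.83 and −2.57 with salt, and at −1.25 and −0.98 and then −2.68 and −2.67 in the deletion strain. It fell by 1.43 (SE 0.14, limma adjusted p = 0.000141) in WT and by 1.56 (SE 0.14, adjusted p = 7.59e-05) in the deletion strain. Any link between HAP4 and the changes of the member genes was not tested.

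HAP1, a heme-dependent activator of CYC1 and other genes, rose by 1.17 (SE 0.12, limma adjusted p = 0.000152) in WT and by 1.29 (SE 0.12, adjusted p = 7.75e-05) in the deletion strain. ROX1, a repressor of hypoxic genes, fell in WT by 0.59 (SE 0.15, adjusted p = 0.0137) and changed by −0.01 (SE 0.15, adjusted p = 0.977) in the deletion strain. The difference between those responses was 0.58 (SE 0.22, adjusted p = 0.334) and did not pass.

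AEP2, a gene needed for expression of the mitochondrial ATP synthase gene OLI1 and chosen after its values were seen, was the 1 gene of the 11 tested for ATP synthase assembly that was called in the deletion comparisons. It changed by −1.38 (SE 0.17, limma adjusted p = 0.00352) without salt and by −1.11 (SE 0.17, adjusted p = 0.00559) with salt. OLI1 itself changed by 0.14 (SE 0.19, adjusted p = 0.672) and −0.02 (SE 0.19, adjusted p = 0.956). Whether the change in AEP2 bore on OLI1 was not tested.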
